A study of Homo sapiens with 6 samples.

Results

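PRF1 encodes perforin, the pore-forming protein of cytotoxic lymphocytes, and was examined with 7 other genes whose products sit in the granules of T and NK cells: the granzymes GZMA, GZMB, GZMH, GZMK and GZMM, the antimicrobial protein granulysin (GNLY) and the granule membrane protein NKG7. The set was chosen by the change of PRF1 between the groups of this carcinoma line, so the PRF1 values are given as a description and not as a test. The other genes entered by their function. Of these 8 genes, PRF1, GZMK, GZMM, GNLY and NKG7 each had 1 probe set among the 16098 that the annotation pairs with a gene symbol, and GZMA, GZMB and GZMH were not analysed here. The 5 measured genes are described in full.

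The cells were HCT116, an established human colorectal carcinoma line that the labels spell HTC116. Both groups were stably transduced, 3 cultures with an empty vector (control) and 3 with a construct labelled as overexpressing miR-196b, and total RNA of each culture was read on 1 whole-transcript array. The titles of the latter 3 read miR1966OE, taken here as miR-196b. No drug or further treatment is named. Whether a culture was a clone or a pool, and which promoter drove the construct, is not given in the sources used here. Nor do the labels say whether the cultures were transduced separately, so a p-value covers the variation among these cultures and perhaps not among transductions. Values are given on the deposited log2 scale, where a difference of 1 is 2-fold. Precision is limited by the number of arrays.

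In a killer cell, perforin and granzymes are stored together in acidic granules and released towards a bound target cell. Perforin forms pores in the target membrane, and granzymes, a family of serine proteases, pass into the target and cut proteins there. Granulysin damages microbial membranes. These genes are textbook markers of T and NK cells and not of colon epithelium.

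The labels were checked first. The microRNA that the labels name is printed here from RefSeq (GRCh38.p14), 5′ to 3′, with its seed (bases 2 to 8) in capitals.
hsa-miR-196b-5p: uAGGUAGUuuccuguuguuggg
The probe set of its precursor gene MIR196B had a control mean of 7.97 ± 0.10 and a labelled mean of 8.05 ± 0.14 (log2 value, SD, n = 3), a difference of 0.08 (limma adjusted p = 0.819). That of MIR196A2, another gene of the same family, had means of 3.06 ± 0.17 and 10.6 ± 0.15 (log2 value, SD, n = 3), a difference of 7.55. The array reads precursors, so neither value is a level of the mature microRNA. The sources used here do not settle which precursor the construct held. The second group is therefore called "arrays labelled miR-196b" throughout.

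PRF1 was higher in every array labelled miR-196b than in every control array. Its control values were 5.83, 5.91 and 5.79, and its labelled values were 6.99, 7.18 and 6.87 (log2, replicates 1, 2 and 3). The groups did not overlap, and a gap of 0.96 separated the lowest labelled array from the highest control array. The spread within a group was smaller than this gap, at 0.11 among the control arrays and 0.31 among the labelled arrays. The means were 5.84 ± 0.06 and 7.01 ± 0.16 (log2, SD, n = 3 each). The log2 change was 1.17 with an SE of 0.10 and a 95% interval of 0.94 to 1.40, or 2.25-fold. It was the second largest rise among the 16098 named probe sets, and the third smallest p. These are the values for which the gene was chosen (limma adjusted p = 0.0233, exact two-sided permutation p = 0.1, which is the minimum for 3 against 3). The limma adjusted p was above the threshold of 0.05 in each of the 6 fits on 5 arrays (0.0624 to 0.178, log2 change 1.08 to 1.24). It was also above it when unnamed probe sets were tested too (0.0630) and without variance moderation (0.165). The array measures RNA from whole cultures, so more cells carrying PRF1 RNA and more RNA per cell cannot be told apart.

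**Figure D1:**
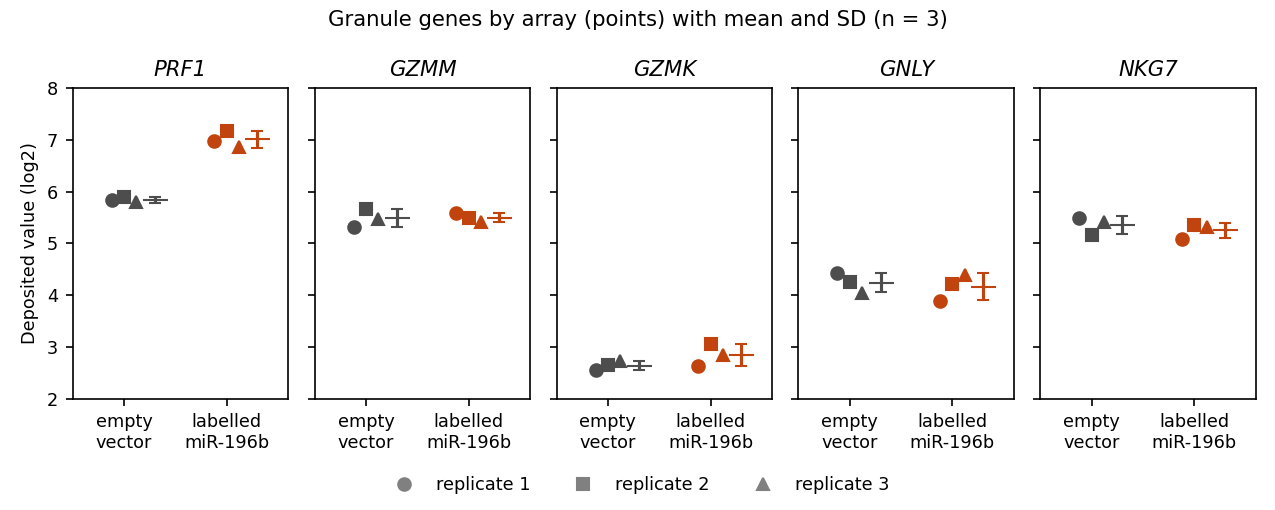
Deposited log2 value (vertical axis) of each measured granule gene on each array, with empty vector arrays in grey and arrays labelled miR-196b in orange; symbols give the replicate, and the bar beside them is the mean with its SD (n = 3). The 3 labelled arrays lie above the 3 control arrays for PRF1, at 6.87 to 7.18 against 5.79 to 5.91, and the groups overlap for the other 4 genes.

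A gene is called where its limma adjusted p, taken over all named probe sets, is below 0.05. None of the other 4 measured granule genes was called, and their groups overlapped (limma, adjusted p of 0.602 to 0.976; 0 of the 4 at an unadjusted p below 0.05, which 9.87% of all named probe sets passed). Of the 5 measured granule genes, 1 was called higher and 0 lower, where 0.0559% of all named probe sets were called, 0.0248% higher and 0.0311% lower. The PRF1 call fixed that count, and nothing is read from it. Groups that do not overlap were found at 1 of the 5 and at 17.2% of all named probe sets.

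Granzymes are the proteases that perforin lets into a target cell. GZMM, a granzyme that is typical of NK cells, was at 5.31, 5.67 and 5.48 in the control arrays and at 5.59, 5.50 and 5.41 in the labelled arrays (log2, replicates 1 to 3). The labelled values all fell inside the control range. The groups differed by 0.01 in log2 value (95% interval -0.24 to 0.27; limma adjusted p = 0.976). GZMK, a granzyme with trypsin-like cutting, was at 2.55, 2.64 and 2.72 in control arrays and at 2.63, 3.05 and 2.84 in labelled ones (log2). Its labelled replicates 2 and 3 lay above all control arrays and replicate 1 did not. The groups differed by 0.20 in log2 value (95% interval -0.07 to 0.48, limma adjusted p = 0.602). That upper limit, the highest of the 4 genes, equals 1.39-fold in signal. The GZMK means of 2.64 and 2.84 lay below the median of all probe sets on an array (4.34 to 4.37). Whether so low a signal shows the full change of the RNA was not tested.

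The remaining products are not proteases. GNLY was at 4.43, 4.25 and 4.05 in control arrays and at 3.88, 4.22 and 4.39 in labelled ones (log2), so that the groups covered nearly the same range. The GNLY means of 4.24 and 4.16 were also below the median of all probe sets on an array. The GNLY difference was -0.08 in log2 value (95% interval -0.44 to 0.28; limma adjusted p = 0.888). NKG7, which takes part in granule release, was at 5.49, 5.16 and 5.41 in the control arrays and at 5.08, 5.35 and 5.32 in the labelled ones (log2). Again the groups overlapped. The NKG7 difference was -0.10 in log2 value (95% interval -0.38 to 0.17; limma adjusted p = 0.792). GZMM changed sign without control replicate 1 (-0.07), without replicate 1 of the labelled arrays (-0.03) and with array weights (-0.01), and GNLY without control replicate 1 (0.02) or labelled replicate 1 (0.06). Their directions are therefore not given as results.

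The gap between PRF1 and the other granule genes was taken within each array, as the PRF1 value minus the mean of the other 4. This difference was 1.39, 1.47 and 1.38 in the control arrays and 2.69, 2.65 and 2.38 in the labelled arrays (log2 units). It was wider in every labelled array than in every control array. The mean difference went from 1.41 ± 0.05 to 2.57 ± 0.17 (SD, n = 3 each), an increase of 1.16. The exact two-sided permutation p was 0.1, the smallest this design allows, and since PRF1 was chosen for its rise the increase is a description. Taken gene by gene, the PRF1 change exceeded that of GZMK by 0.96, of GZMM by 1.15, of GNLY by 1.24 and of NKG7 by 1.27 on the log2 scale. For each of the 4 genes the within-array difference did not overlap between the groups. All 4 differences contain the same chosen PRF1 values, so they are a description too and not separate tests. Probe sets differ in how strongly they bind, so a level of PRF1 above that of a granzyme on these arrays does not rank their RNAs.

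The sequences upstream of the measured genes are shown for PRF1 and for the measured granule genes that were not called. RefSeq windows of 300 bases (250 before and 50 after the start, GRCh38.p14) matched 6 of the 8 genes by symbol. Of the measured genes these were PRF1, GNLY and NKG7. The 250 bases before each start are printed on the strand of the gene, with capitals marking matches, on either strand, to the letters GGGCGG (GC box), TGTGGT (RUNX) and GGAAGT (ETS). The PRF1 stretch is chr10:70602742-70602991 on the minus strand, that of GNLY chr2:85694108-85694357 on the plus strand and that of NKG7 chr19:51372655-51372904 on the minus strand.
PRF1: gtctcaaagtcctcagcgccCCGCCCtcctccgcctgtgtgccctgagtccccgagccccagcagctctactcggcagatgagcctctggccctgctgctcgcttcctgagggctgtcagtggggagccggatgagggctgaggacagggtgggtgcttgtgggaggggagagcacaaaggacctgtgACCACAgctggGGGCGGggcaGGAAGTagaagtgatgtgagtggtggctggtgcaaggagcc
GNLY: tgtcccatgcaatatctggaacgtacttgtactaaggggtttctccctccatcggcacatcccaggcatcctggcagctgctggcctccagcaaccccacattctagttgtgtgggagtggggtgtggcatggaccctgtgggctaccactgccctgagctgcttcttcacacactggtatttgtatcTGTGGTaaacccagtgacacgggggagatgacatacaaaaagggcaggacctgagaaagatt
NKG7: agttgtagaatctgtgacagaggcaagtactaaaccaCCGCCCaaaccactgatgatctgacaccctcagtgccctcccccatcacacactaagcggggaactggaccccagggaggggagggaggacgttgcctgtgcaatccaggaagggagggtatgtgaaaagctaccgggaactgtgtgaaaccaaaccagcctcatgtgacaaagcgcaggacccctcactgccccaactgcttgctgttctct

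PRF1 was the only one of the 6 windows with a match to GGAAGT, the core bound by ETS factors, at bases -41 to -36 counted from the start, and 22.8% of all 35116 RefSeq windows of that length hold these letters. The PRF1 window had a RUNX match at -62 to -57, and the windows of GNLY, GZMA and GZMB also held this motif, as did 13.1% of all windows. GC box matches stood at -230 to -225 and -51 to -46 in PRF1 and at -213 to -208 in NKG7, against 45% of all windows with 1 or more. The other motifs searched, on both strands, were TCACACC for T-box factors, TTCNNNGAA for STAT factors, CANNTG for the E-box, TGANTCA for AP-1, TGACGTCA for the cAMP response element, TTGGC for NFI factors and TATAAA for the start-site box of that name. PRF1 held 2 E-box matches (68.7% of all windows hold at least 1), of which that at -58 to -53 overlaps the RUNX match, and 0 of the other 6. By base composition the PRF1 window was 65.7% G and C with 9 CG pairs, GNLY 54% with 4 and NKG7 56% with 5, against medians of 58.7% and 14 over all windows. A match is a run of letters and was not tested as a binding site.

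Factors reported to act on perforin and granzyme transcription were taken as a list of 30 genes, of which 19 were measured. None passed the test over all named probe sets (limma, smallest adjusted p = 0.356), with 8 higher, 11 lower and a median change of -0.07 in log2 value against 0.0069 over all named probe sets. At an unadjusted p below 0.05 were RUNX3, STAT5A and NOTCH1, or 3 of 19, where 9.87% of all named probe sets passed. RUNX3, a RUNX factor of killer T cells, was at 4.96, 5.12 and 5.05 in control arrays and at 5.30, 5.81 and 5.60 in labelled ones (log2 change 0.53, limma adjusted p = 0.356). STAT5A, which carries interleukin 2 signals, was at 4.23, 4.42 and 3.96 in control arrays and at 3.50, 3.89 and 3.42 in labelled ones (log2 change -0.60, limma adjusted p = 0.360). The groups did not overlap for either factor, and their changes had opposite signs. Of the 19, 2 were separated upward and 3 downward, where 10.0% and 7.18% of all named probe sets were. The STAT5A means of 4.20 and 3.60 lay below the median of all probe sets on an array (4.34 to 4.37). The receptor NOTCH1 had a log2 change of -0.21 and ELF4, an ETS factor that acts on PRF1 in NK cells, -0.19 (limma adjusted p = 0.491 and 0.506). The T-box factors EOMES (-0.11) and TBX21 (-0.07), which direct the killer cell programme, also did not pass (limma adjusted p = 0.761 and 0.904).

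Genes for building, loading and releasing the granules did not pass either. Of 21 listed genes 17 were measured, 8 of them higher and 9 lower. Their median change was -0.0022 in log2 value and 0 were called (limma, smallest adjusted p = 0.453). An unadjusted p below 0.05 was found for 1 of 17, where 9.87% of all named probe sets passed. UNC13D, which primes granules for fusion, was at 6.64, 7.03 and 6.95 in control arrays and at 6.59, 6.60 and 6.46 in labelled ones (log2 change -0.32, limma adjusted p = 0.453). All 3 labelled arrays lay below the control arrays. Of the 17, 4 were separated upward and 1 downward, where 10.0% and 7.18% of all named probe sets were. IGF2R, a sorting receptor that also binds granzyme B, had a log2 change of 0.16, CTSC, the protease that activates granzymes, 0.16, and the fusion protein VAMP8 -0.19. SRGN, the proteoglycan that packs the granule contents, had log2 means of 3.61 and 3.60 in the control and labelled groups, and CALR, a chaperone that binds perforin, had 12.41 and 12.39.

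Downstream, 10 of 20 listed granzyme substrates and death effectors were measured, 8 of them higher and 2 lower, around a median change of 0.05 in log2 value. None was called, and none had an unadjusted p below 0.05 (limma, smallest adjusted p = 0.577). The values nearest the mark were those of the nuclear protein NUMA1 (log2 change 0.15), GSDMB, a pore former cut by granzyme A (0.17), BID, a granzyme B substrate (-0.08), and LMNB1, a nuclear lamin (0.08). Of 14 genes of other killing pathways 3 were measured, and TNF (-0.18), CFLAR (-0.09) and FADD (0.08) were not called (limma, smallest adjusted p = 0.644; 0 of 3 at an unadjusted p below 0.05). None of the 6 listed serpins that act on granule proteases was analysed here.

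Relatives of the members gave the next comparison. Perforin shares its pore-forming domain with complement proteins and with MPEG1, and 7 of 11 listed relatives were measured. All 7 had a lower mean in the labelled arrays, with log2 changes of -0.25 (C9) to -0.03 (C6), and 0 of the 7 was called or had an unadjusted p below 0.05 (limma, smallest adjusted p = 0.654). Of all 16098 named probe sets, 7733 were lower. By mean value, 5 of the 7 relatives lay below the median of all values. Nothing is read from their shared sign. BRINP1 had -0.23, ASTN1 -0.10 and C7 -0.10. Among 8 measured granule proteases of neutrophils and mast cells, 4 were higher and 4 lower, and 0 were called (limma, smallest adjusted p = 0.160). An unadjusted p below 0.05 was found for 2 of 8, where 9.87% of all named probe sets passed. TPSAB1, a mast cell tryptase, was at 4.72, 4.78 and 4.80 in control arrays and at 5.29, 5.44 and 5.24 in labelled ones (log2 change 0.55, limma adjusted p = 0.160). PRTN3, a neutrophil serine protease, was at 5.70, 5.62 and 5.50 in control arrays and at 6.37, 5.94 and 5.92 in labelled ones (log2 change 0.47, limma adjusted p = 0.383). Both were separated between the groups, so 2 of the 8 upward and 0 downward, where 10.0% and 7.18% of all named probe sets were. TPSB2, whose sequence is close to that of TPSAB1, had a log2 change of -0.03, and the neutrophil proteins AZU1 and CTSG had 0.11 and 0.08. CPA3, the mast cell carboxypeptidase, had -0.09.

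**Figure D2:**
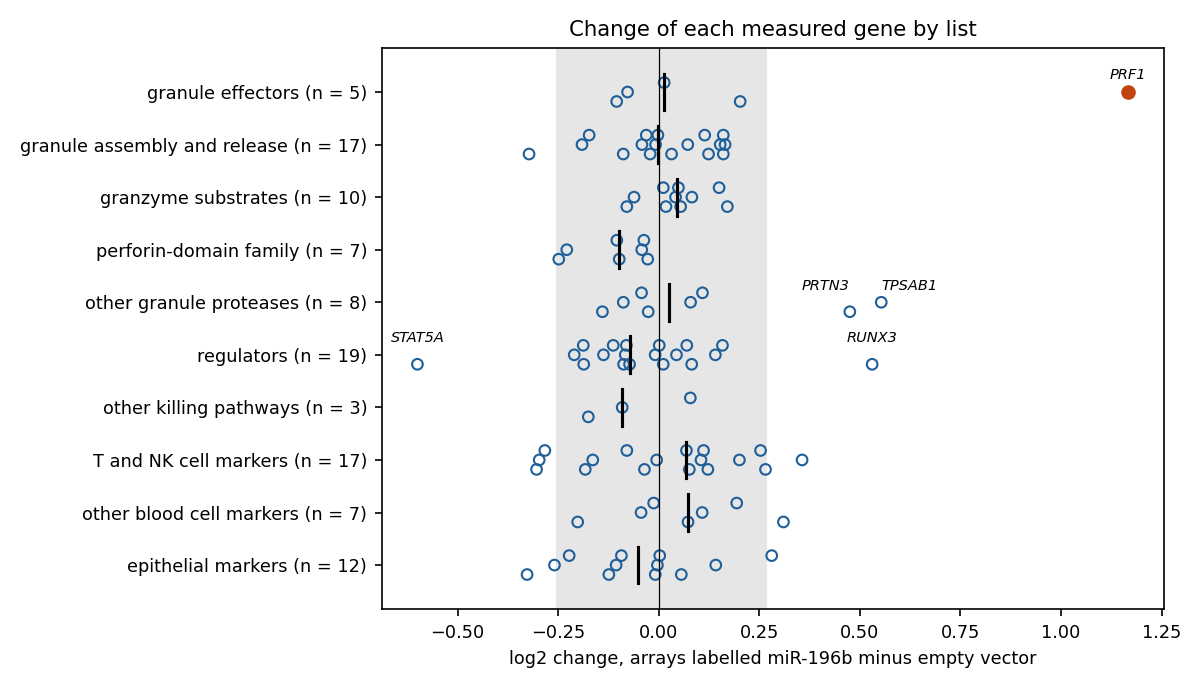
Log2 change of each measured gene (circles; labelled arrays minus empty vector, horizontal axis) by gene list, with the list median as a black bar, called genes filled, and the middle 90% of all named probe sets shaded. PRF1 at 1.17 is the only filled circle, and STAT5A, RUNX3, TPSAB1 and PRTN3 are the other genes beyond 0.45 in either direction.

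No measured marker of T and NK cells was called. Of 27 listed markers 17 were measured, 9 of them higher and 8 lower around a median change of 0.07 in log2 value, with 0 called (limma, smallest adjusted p = 0.318). At an unadjusted p below 0.05 were 5 of the 17, where 9.87% of all named probe sets passed. Those 5 were NCAM1 (0.36), TRAT1 (0.27), CCL5 (0.25), NCR1 (-0.28) and CD8A (-0.30), so that markers of NK cells and of T cells appeared on both sides. Groups were separated upward for 3 of the 17 and downward for 2, where 10.0% and 7.18% of all named probe sets were. The summed signal of the 17 markers was 414 to 480 in the control arrays and 426 to 453 in the labelled arrays (linear scale), the labelled range lying within the control range. No marker can be at 0 on this scale. The median of all probe sets on an array was 4.34 to 4.37, and 8 of the 17 markers had a mean below the median of all values. The brightest were CD7, at 6.01 and 6.09, CD8A, at 5.99 and 5.69, and NCR1, at 5.45 and 5.16 (log2 means, control and labelled). Of genes that most T cells carry, CD2 was at 3.93 and 4.13, CD247 at 4.10 and 3.92, LCK at 4.62 and 4.54 and ZAP70 at 4.91 and 4.87. Of 17 listed markers of other blood cells 7 were measured, and 0 were called (limma, smallest adjusted p = 0.476; 1 of 7, CSF1R at 0.31, at an unadjusted p below 0.05). Their summed signal was 265 to 285 in control and 222 to 299 in the labelled arrays.

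The labelled cell type was checked against epithelial markers. EPCAM was at 11.02 and 10.90, CLDN7 at 11.32 and 11.21, KRT18 at 11.29 and 11.06 and KRT19 at 10.09 in both groups (log2 means, control and labelled). Of 12 measured epithelial and colorectal markers, 4 were higher and 8 lower, with 0 called (limma, smallest adjusted p = 0.405). An unadjusted p below 0.05 was found for 3 of 12, all lower, where 9.87% of all named probe sets passed in either direction. Those 3 were KRT18 (-0.22), KRT20 (-0.33) and CDX2 (-0.26), and CLDN4 had 0.28. Groups were separated upward for 1 of the 12 and downward for 4, where 10.0% and 7.18% of all named probe sets were. The colon markers VIL1, at 4.13 and 4.18, and KRT20, at 4.64 and 4.31, were close to the median of the array. Whether these epithelial shifts have a part in the PRF1 values was not tested.

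The genes next to PRF1 on chromosome 10 were examined because position was no part of how the genes were chosen. Genes without a named probe set were passed over, so those described need not be the closest. The 5 nearest genes with a named probe set on each side were taken in the order of the RefSeq gene table. They had log2 changes of -0.24 to 0.09, with 5 higher, 5 lower and a median of -0.0026. None of the 10 was called, and none had an unadjusted p below 0.05 (limma). PALD1, the nearest of these on one side, was at 7.33, 7.27 and 7.25 in control arrays and at 7.17, 7.06 and 7.13 in labelled ones (log2 change -0.16, limma adjusted p = 0.508), opposite in sign to PRF1. SGPL1, the nearest of these on the other side, which breaks down sphingosine phosphate, had means of 8.97 ± 0.02 in control and 9.07 ± 0.02 in labelled arrays (log2, SD, n = 3; change 0.09, limma adjusted p = 0.662). The groups did not overlap for either neighbour, so for 2 of the 10, where this held for 17.2% of all named probe sets. The growth factor NODAL had -0.19, the translation inhibitor EIF4EBP2 0.06, LRRC20 0.08 and NPFFR1 -0.24, and on the far side PCBD1 had 0.0026, the netrin receptor UNC5B -0.0078, its antisense RNA UNC5B-AS1 -0.12 and the cadherin CDH23 0.01.

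**Figure D3:**
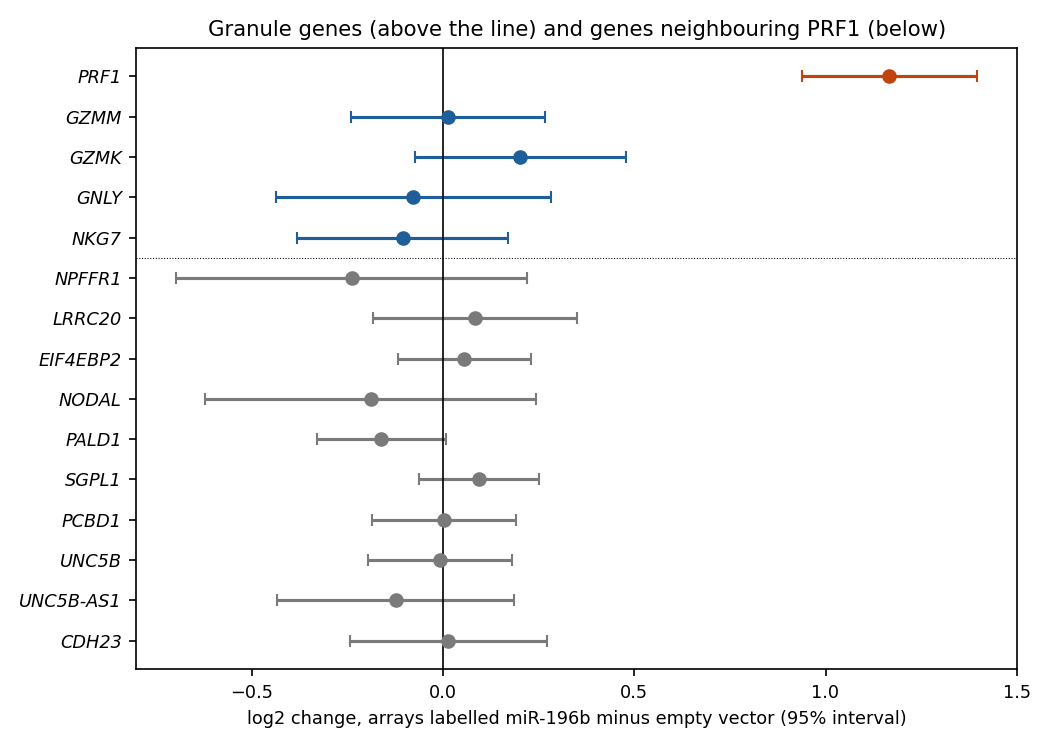
Log2 change (labelled arrays minus empty vector, horizontal axis) with its 95% interval from the limma fit, for the measured granule genes above the dotted line and for the 10 genes around PRF1 below it. PRF1 stands at 1.17 (0.94 to 1.40), while the intervals of the other 14 genes all include 0.

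The probe sets whose pattern over the 6 arrays was nearest to that of PRF1 were found by the root mean square difference between profiles, each with its own mean subtracted. In order these were MBNL3, a splicing regulator (0.18 log2 units), SAT1, an enzyme of polyamine breakdown (0.23), TMT1A (0.25), the zinc finger gene ZNF836 (0.25) and the cadherin FAT4 (0.26). Their log2 changes were 0.98 for MBNL3, 0.85 for SAT1, 0.77 for TMT1A, 0.78 for ZNF836 and 0.69 for FAT4. These rises follow from picking the genes by closeness to PRF1 and are a description. SAT1 alone of the 5 was called (limma adjusted p = 0.0452), and the others were at 0.102 to 0.343. Of all named probe sets, 0.0559% were called. The measure takes in the step between the groups as well as the differences within them. Within the labelled group the genes did not follow 1 order. PRF1 and MBNL3 were highest in replicate 2 and lowest in replicate 3. ZNF836 and TMT1A were also highest in replicate 2 but lowest in replicate 1, with TMT1A nearly level. FAT4 was highest in replicate 1 and lowest in replicate 3, and SAT1 was highest in replicate 3 and lowest in replicate 2.

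**Figure D4:**
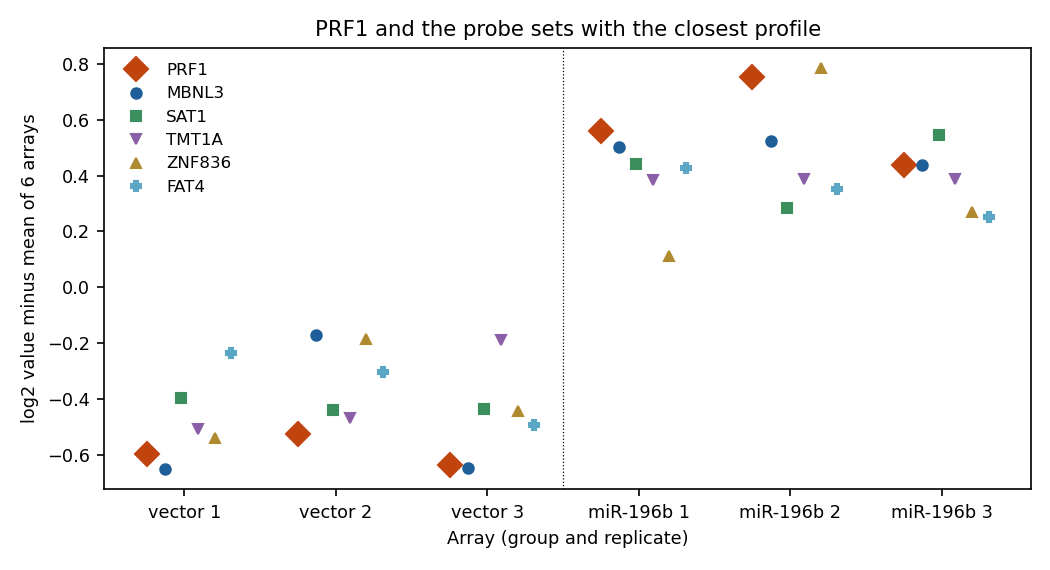
Value of PRF1 (diamonds) and of the 5 probe sets with the closest profile on each array, as log2 value minus that probe set's mean over the 6 arrays (vertical axis), with empty vector arrays left and arrays labelled miR-196b right of the dotted line. All 6 lie above their mean in the labelled arrays and below it in the control arrays, which follows from picking by closeness to PRF1.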

How the data were processed

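Total RNA of 6 HCT116 cultures was measured on whole-transcript arrays. The deposited values are log2 expression values for each probe set. The submitters' processing notes name Partek 6.6 and RMA without their order or settings, and log base 2 was taken because RMA gives it. RMA includes quantile normalization, which removes overall differences between arrays. No genome build is given in the sources used here. Of 53617 probe sets, 16098 had 1 gene symbol (14884 genes), 0 had several and 37519 had none here. Symbols were matched by gene identifier to RefSeq GRCh38.p14 (all 16098 matched), used for names, gene order and promoter sequences. Batches could not be tested, since neither scan dates nor detection calls were used here.

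The values were fitted without filter in R 4.3.3 with limma 3.58.1 (lmFit, eBayes), labelled miR-196b minus control, with Benjamini-Hochberg adjustment over the 16098 named probe sets at 0.05; a gene past it is called. The fit was tested on simulated data. Lists used the brightest probe set of a gene and are described by counts and medians. The genes and lists were chosen with earlier results of these data known. Genes named were all members, from each list any called gene and the 4 smallest p, 5 neighbours on each side of PRF1, and the 5 closest profiles; other list genes were added for their role after their values were seen. Same-numbered arrays correlated only weakly in their deviations (0.0085 to 0.037), so the main fit has no replicate block. That check cannot exclude pairing.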

Additional observations from a re-analysis of the deposited data

How the results depend on the processing

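PRF1 kept its direction under all 15 alternatives, with a log2 change of 1.08 to 1.24, and was called in 6 of them and not in 9. The call held without the dimmest 40% of named probe sets (limma adjusted p = 0.00316), with a trended, robust variance prior (0.000102), array weights (0.0202), median centring (0.0220), averaged probe sets per gene (0.0205) and quantile normalization run again (0.0164). It was lost, at the same log2 change of 1.17, with all probe sets of the array (0.0630), which tests more features, and without variance moderation (0.165); the called members were then 0. It was lost in each of the 6 fits that leave out an array (log2 change 1.08 to 1.24; 0 members called). With the replicate number as a block, PRF1 had a log2 change of 1.17 (0.120), and 0 members and 1 named probe set were called. Same-numbered arrays correlated at 0.0085 to 0.037 in their deviations, and 2 of 3 matched their own number best. These correlations are small, but a check on 3 pairs cannot exclude that the numbers pair the arrays. The gap between PRF1 and the other members rose by 1.10 to 1.26 with an array left out. The other 4 members were called in 0 of 58 fitted values and changed sign in 5. Over all named probe sets, 9 were called, against 22 without the dimmest 40%, 91 with the trended prior, 5 without moderation and 2 to 3 with an array left out. Among the lists, 1 protease of other granules was called without the dimmest 40% and 1 epithelial marker with the trended prior; all other list counts were 0. GZMK and GNLY were among the dimmest 40%. The cause of these differences was not tested where none is named.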
